A study of Mus musculus with 32 samples.

Results

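The genes described are the 10 members of the MYC and MAX network, Myc, Mycn, Mycl, Max, Mga, Mxi1, Mxd1, Mxd3, Mxd4 and Mnt, followed through 8 groups of mouse embryonic stem cells (ESCs). They were chosen by name, each symbol was matched to 1 Ensembl identifier, and all 10 were found among the 31053 genes in the count tables. All 10 also passed the filter on low counts, which left 15280 genes to test. The cells were C1 ESCs, a single line in which both copies of the β-catenin gene were deleted and which carries, in every group, the rtTA activator under an EF1a promoter and a TRE3G-driven β-catenin S33Y, a constitutively active form joined to mCherry and to a destabilizing domain. Doxycycline (dox) starts transcription of the fusion and trimethoprim (TMP) stabilizes its protein. Before sorting, cells received 10 μM TMP alone for 48 h (C1) or TMP with 100 ng/mL dox, and the induced cells were sorted by mCherry into a middle (C1M) and a high (C1H) fraction. Sorted cells were collected at day 0 or grown for 4 days in NDiff227 medium on gelatin. At day 4, C1T came from C1 and had TMP throughout, C1MV and C1HV came from C1M and C1H and had only the solvent DMSO, and C1MDT and C1HDT came from the same fractions and had dox and TMP throughout. Each group held 4 libraries that the labels call biological replicates, 32 in all. The labels describe growth in serum with LIF, whereas the methods of the study describe 2i with LIF for these cells.

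MYC proteins are transcription factors of the basic helix-loop-helix leucine zipper class that bind DNA only as a pair with MAX. MAX also pairs with the MXD proteins, MNT and MGA, which recruit corepressors to the same E-box sites, so the network is usually described as a balance of activating and repressing pairs around a common partner. In ESCs the MYC proteins support ribosome production and proliferation, N-MYC can stand in for c-MYC, and MGA with MAX belongs to a variant Polycomb complex (PRC1.6) that holds germline genes silent. In several tissues Myc is a textbook target of β-catenin and the TCF/LEF factors.

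Libraries held between 1366951 and 3648787 reads on genes (median 2402468), read from the 3′ end of each transcript, where a transcript gives reads irrespective of its length. Levels below are counts scaled to a fixed library total (CPM, after TMM scaling), given as mean ± SD with n = 4 libraries, and intervals on counts cover counting error only. Reads on Ctnnb1, the gene removed, were 7.81 ± 2.63 CPM in C1, 12.3 ± 3.84 in C1M, 41.2 ± 5.70 in C1H. At day 4 they were 9.74 ± 2.47 CPM in C1T, 9.16 ± 2.57 in C1MV and 6.21 ± 1.84 in C1HV, and 29.2 ± 4.29 in C1MDT and 30.8 ± 3.75 in C1HDT. The deletion took the coding sequence, and reads from the 3′ end can lie outside it, so they do not check the deletion. The summed level of 8 pluripotency markers lay between 6168 and 6391 CPM in C1 and between 4604 and 5012 in C1M and C1H. At day 4 it was 823 to 987 CPM in C1T, 1159 to 1546 with inducers withdrawn and 538 to 728 with them kept, and 7 of the 8 were lower in each of C1MDT vs C1MV and C1HDT vs C1HV. Markers of endoderm (8 genes) summed to 13.7 to 28.1 CPM in C1T, 298 to 507 in C1MV, 415 to 473 in C1HV and 648 to 795 in C1MDT and C1HDT, and those of neural ectoderm (5 genes) to 315 to 450 CPM in C1T, C1MV and C1HV and to 508 to 660 in C1MDT and C1HDT. At day 0 the endoderm markers summed to 12.5 to 25.2 CPM in C1, 32.2 to 44.3 in C1M and 32.4 to 38.8 in C1H. Those of neural ectoderm summed to 43.0 to 52.3, 55.3 to 71.7 and 53.0 to 67.4 CPM. Markers of mesoderm (5 genes) summed to between 32.6 and 60.7 CPM at day 0 and between 11.9 and 27.7 at day 4. Markers of fibroblasts (6 genes) summed to between 7.54 and 21.6 CPM in every library. Within that sum Thy1 was at 0.721 CPM in C1 and 10.8 in C1H, and Col1a1 at 5.15 and 2.10. In bulk RNA, fewer cells of a type and less RNA per cell cannot be told apart, and the part of these marker differences in the results below was not tested.

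Promoter windows (250 bases before to 50 after a start, RefSeq, GRCm38.p6) were held for 9 of the 10 members, in 11 windows. The entry for Myc is missing. Both strands were searched for the E-box CACGTG, to which the network itself binds, for the TCF/LEF sequences CTTTGAT and CTTTGTT, through which β-catenin acts, and for the E2F sequences TTTCCCGC and TTTGGCGC, since E2F6 belongs to the same Polycomb complex as MGA. The E-box was found in 3 of the 11 windows, those of Mxd4, Mnt and Max, against 7.15% of 32851 windows of all genes. TTTGGCGC was found in 1 window, that of Mycn, at 2 places, against 0.514% of all windows. CTTTGAT (3.73% of all windows), CTTTGTT (5.85%) and TTTCCCGC (1.07%) were in none of the 11. A match is a description of letters and says nothing of binding, and a missing match says only that the letters are not in the window. The stretches around the matches are given because those of Mxd4, Mnt and Max hold the letters the network itself binds, and that of Mycn holds the repeated E2F letters. They lie upstream of the starts of their windows, apart from that of Max, which runs from base -63 to base 10 of its start. None touches an exon annotated by GENCODE, and the capitals mark the matches. The stretch of Mycn is chr12:12941937-12942079 on the minus strand, that of Mxd4 is chr5:34187864-34187960 on the minus strand, that of Mnt is chr11:74830741-74830866 on the plus strand, and that of Max is chr12:76962239-76962311 on the minus strand.
Mycn: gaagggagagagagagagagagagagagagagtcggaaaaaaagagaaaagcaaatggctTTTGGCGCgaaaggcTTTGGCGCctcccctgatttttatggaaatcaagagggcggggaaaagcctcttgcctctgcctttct
Mxd4: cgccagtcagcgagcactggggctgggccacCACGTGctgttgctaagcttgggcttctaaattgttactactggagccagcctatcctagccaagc
Mnt: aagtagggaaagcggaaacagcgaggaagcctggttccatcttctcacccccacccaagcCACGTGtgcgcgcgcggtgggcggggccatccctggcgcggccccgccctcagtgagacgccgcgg
Max: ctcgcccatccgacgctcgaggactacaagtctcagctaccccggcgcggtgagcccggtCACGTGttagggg

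**Figure D1:**
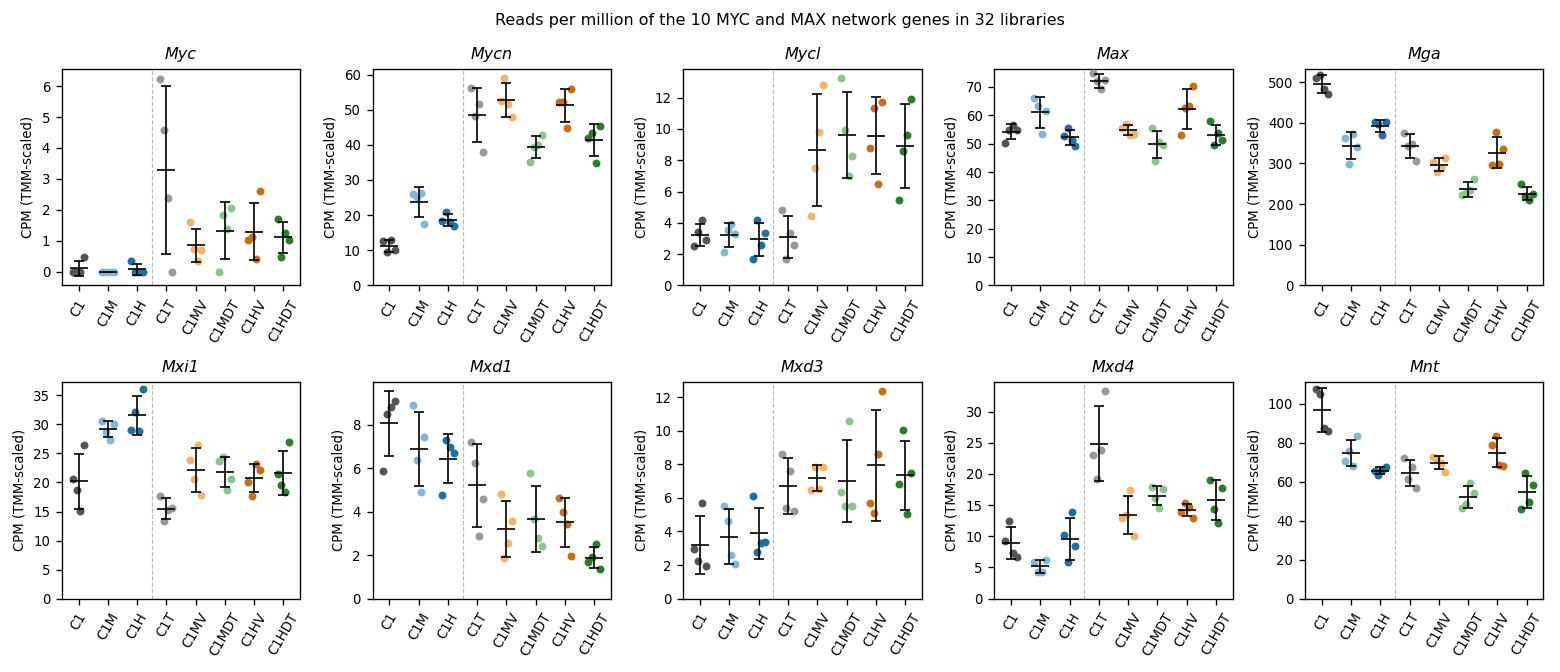
TMM-scaled CPM (vertical axes, linear) of each of the 10 genes in the 8 groups (horizontal axes), with 1 point per library and the mean ± SD of 4 libraries in black. The dashed line separates day 0 from day 4. Mycn rises from 9.62 to 13.0 CPM in C1 to 34.8 CPM or more in every day-4 library, and Mxd4 is highest in C1T.

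The first comparison asked what the induced β-catenin did at day 0. Mycn and Mxi1 were higher, and Mga and Mnt lower, in both sorted fractions than in C1. In C1M vs C1, 5 of the 10 members passed the threshold (edgeR's quasi-likelihood test, Benjamini-Hochberg adjusted p under 0.05 over all genes tested) where 26.3% of all genes did. In C1H vs C1 it was 4 of 10, against 25.9% of all genes. The fifth gene in C1M was Mxd4, which was lower. Both comparisons share the C1 libraries, and C1 had neither dox nor an mCherry gate, so that dox, the sort and the fusion cannot be told apart. Between C1H and C1M the test called 0 members, with 4 at an unadjusted p under 0.05 and 0 by DESeq2, against 1.77% of all genes.

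The second set of comparisons followed each population from its own start to day 4. In C1T vs C1, 7 of 10 members passed, against 49.3% of all genes. The counts were 7 in C1MV vs C1M (45.9% of all genes), 10 in C1MDT vs C1M (52.4%), 7 in C1HV vs C1H (47%) and 9 in C1HDT vs C1H (55.7%). Myc is 1 of the members counted in each. Mycn, Mxd3 and Mxd4 rose and Mga fell in all 5 of these comparisons. Mycl rose in the 4 that started from sorted cells, and was at 3.24 ± 0.710 CPM in C1 and 3.10 ± 1.32 in C1T. The median log2 fold change over the members was 0.18 in C1T vs C1 and 0.43 in C1MV vs C1M, where the medians of all genes were 0.01 and -0.04. Both medians include Myc, at 4.33 and 4.12. Without it the middle value of the other 9 members was -0.05 (Mycl) and -0.09 (Mnt), so the medians show no rise of the set. Myc reached 1 CPM in 0 libraries of day 0 and in 12 libraries of day 4, so it was tested only because of its level at day 4, and its calls in these 5 comparisons support neither a rise of Myc nor a change of the members as a set.

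Next, the day-4 populations that came from induced cells were set against C1T, whose libraries all 4 comparisons share. C1MV and C1HV had neither inducer at day 4, with Ctnnb1 reads near those of C1T, while C1T had TMP. In C1MV vs C1T 6 of 10 members passed (30.2% of all genes), in C1MDT vs C1T 6 (33.4%), in C1HV vs C1T 2 (28%) and in C1HDT vs C1T 6 (33.5%). Mycl was higher and Mxd4 lower in all 4. Max and Mga were lower and Mxi1 higher in C1MV, C1MDT and C1HDT, and their values in C1HV missed the threshold.

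Last, the same fraction with and without inducers during differentiation was compared. In C1MDT vs C1MV 3 of 10 members passed (12.6% of all genes), Mycn, Mga and Mnt, and in C1HDT vs C1HV 2 (16%), Mga and Mnt. All of these were lower with dox and TMP throughout. In each of the same comparisons 7 of 8 pluripotency markers were lower, 4 of 8 endoderm markers and 3 of 5 neural ectoderm markers were higher, and Pou5f1 was higher in C1HDT vs C1HV. The part of these markers was not tested. Between the fractions at day 4, 0 members passed in C1HV vs C1MV (0.00654% of all genes) and 0 in C1HDT vs C1MDT (0%), with 0 and 1 at an unadjusted p under 0.05 and 0 and 0 by DESeq2. The test of whether continued induction acted differently in the 2 fractions also called 0 members and 0% of all genes, with 0 members at an unadjusted p under 0.05 and 0 by DESeq2.

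Whether the change from start to day 4 differed from that of C1T was tested as a difference of changes. It differed for 4 of 10 members from C1M to C1MV (22.5% of all genes), 3 to C1MDT (24.4%), 4 from C1H to C1HV (21.9%) and 3 to C1HDT (25.2%). The 4 tests share the C1 and C1T libraries. Mycn rose less from the sorted fractions than from C1 in all 4, with log2 differences of -0.94 ± 0.23 (SE) to C1MV, -1.37 ± 0.23 to C1MDT, -0.64 ± 0.24 to C1HV and -0.94 ± 0.24 to C1HDT (adjusted p = 0.000816, 6.43e-07, 0.0385 and 0.000989). The call for C1HV was lost without any 1 of 12 libraries (C1 replicates 1, 2 and 4 and replicates 1 to 3 of C1H, C1T and C1HV), with adjusted p between 0.0531 and 0.110, with no filter (0.0577) and with only the groups compared (0.0504). The starting level of Mycn was itself higher in the sorted fractions.

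**Figure D2:**
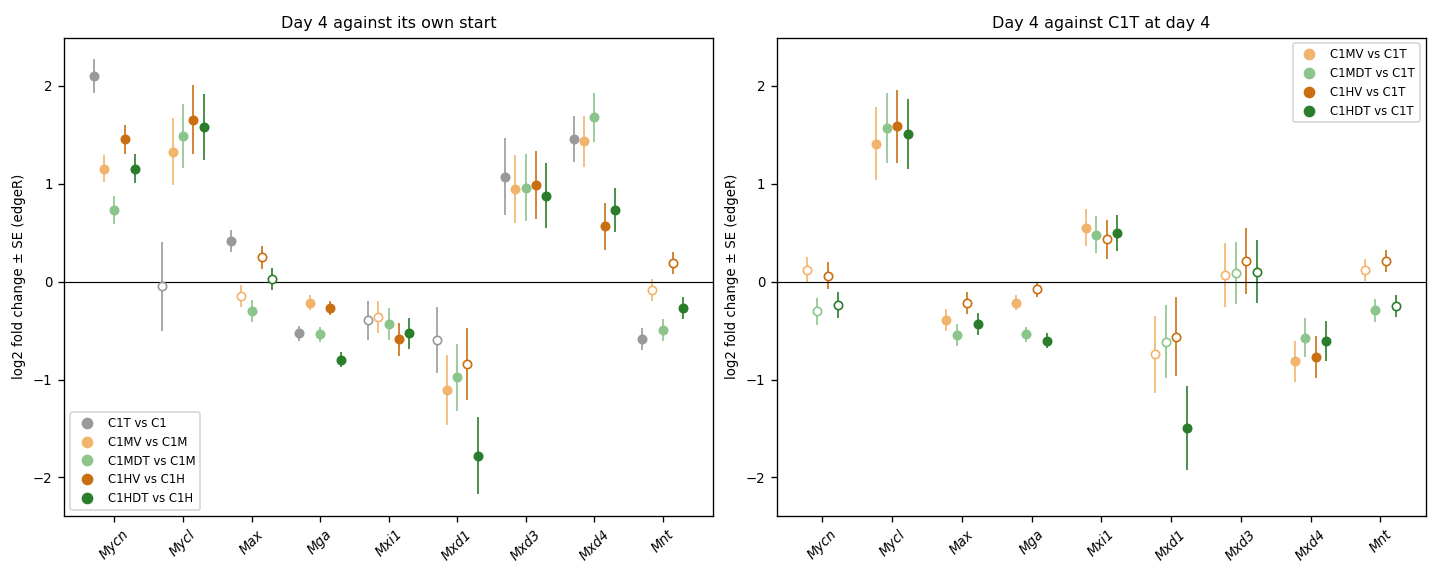
Log2 fold changes (vertical axes, points with SE bars from edgeR) of 9 members from start to day 4 (left) and against C1T at day 4 (right). Filled points passed an adjusted p of 0.05 and open points did not, and Myc is left out because its starting groups hold 0 or 1 read. Mycl passes the threshold in the 4 populations from sorted cells, and stands above C1T in all 4.

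Mycn encodes N-MYC, the MYC protein of neural and other embryonic progenitors. In the libraries of C1 it stood at 12.6, 9.62, 13.0 and 10.1 CPM, in those of C1M at 25.9, 25.2, 26.4 and 17.3, and in those of C1H at 18.4, 20.9, 18.0 and 16.8. No library of C1M or C1H overlapped C1. The log2 fold change was 1.06 ± 0.19 (SE) in C1M (edgeR, adjusted p = 1.65e-06) and 0.70 ± 0.19 in C1H (adjusted p = 0.00314), and the difference between the fractions missed the threshold (C1H vs C1M -0.36, 95% interval -0.67 to -0.04, adjusted p = 0.308). At day 4 Mycn stood at 56.1, 48.3, 51.5 and 37.9 CPM in C1T and at 34.8 CPM or more in each other library. Every day-4 library was above every day-0 library. From start to day 4 the log2 fold change was 2.10 ± 0.17 in C1T (adjusted p = 2.05e-22), 1.15 ± 0.14 for C1MV (1.78e-12), 0.73 ± 0.14 for C1MDT (5.01e-06), 1.45 ± 0.15 for C1HV (4.69e-16) and 1.15 ± 0.15 for C1HDT (1.01e-11). Levels at day 4 then fell into a narrow range, with means of 52.7 ± 4.73 CPM in C1MV, 51.3 ± 4.70 in C1HV, 41.3 ± 4.6 in C1HDT and 39.3 ± 3.09 in C1MDT, and all 4 missed the threshold against C1T. C1MDT (-0.30 ± 0.13, adjusted p = 0.0716) passed it without C1T replicate 4 (0.0361) and with at least 1 CPM in all libraries (0.0491). C1MDT was below C1MV without overlap of libraries (log2 fold change -0.42 ± 0.13, adjusted p = 0.0175), a call lost without C1MV replicate 2 (adjusted p = 0.0954) or C1MDT replicate 1 (0.0583). For the high fraction the same difference was -0.30 ± 0.14 and missed the threshold (adjusted p = 0.126).

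Mycl encodes L-MYC, the least studied of the 3 paralogs. All 12 libraries of day 0 and the 4 of C1T lay between 1.67 and 4.8 CPM, which is 4 to 12 reads. In C1MV the libraries stood at 4.44, 7.49, 9.81 and 12.8 CPM, in C1MDT at 13.3, 9.95, 6.98 and 8.26, in C1HV at 8.78, 11.4, 6.45 and 11.7, and in C1HDT at 5.44, 8.60, 9.64 and 11.9. Apart from 1 library of C1MV at 4.44 CPM, all of them were above all of C1T. The log2 fold changes against C1T were 1.41 ± 0.37 for C1MV, 1.57 ± 0.36 for C1MDT, 1.59 ± 0.37 for C1HV and 1.51 ± 0.36 for C1HDT (adjusted p = 0.00129, 0.000160, 0.000311 and 0.000318). Differences between these 4 groups missed the threshold, with or without continued induction (C1MDT vs C1MV 0.16, 95% interval -0.41 to 0.73, and C1HDT vs C1HV -0.08, -0.66 to 0.51). The change from start to day 4 was larger than that of C1T by 1.54 ± 0.57 to C1MDT, 1.71 ± 0.58 to C1HV and 1.63 ± 0.57 to C1HDT on the log2 scale (adjusted p = 0.0343, 0.0220 and 0.0240), and by 1.38 ± 0.57 to C1MV, which missed the threshold (adjusted p = 0.0695). These 3 calls were lost without C1 replicate 3 or C1T replicate 2 (adjusted p 0.0538 to 0.0858), that to C1MDT also without C1M replicate 1 or C1MDT replicate 1, and that to C1HDT also without C1H replicate 1 or C1HDT replicate 4 (0.0542 to 0.0597).

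Myc itself, on chromosome 15 at 61985391 to 61990374 (GRCm38), was at the edge of detection. At day 0 it had 0, 0, 0 and 1 reads in C1, 0 in all 4 libraries of C1M, and 1, 0, 0 and 0 in C1H. In C1T it had 13, 11, 5 and 0 reads (6.24, 4.58, 2.38 and 0 CPM). In C1MV it had 4, 2, 1 and 1 reads, in C1MDT 0, 5, 5 and 6, in C1HV 2, 2, 1 and 4, and in C1HDT 5, 1, 3 and 3. C1T therefore held both the highest library and 1 of the libraries with no read. Over the 4 libraries together, C1T was at 29.2 times C1 (exact 95% counting interval 4.84 to 1191), C1HV at 13.0 times C1H (1.80 to 569.6) and C1HDT at 12.6 times C1H (1.87 to 540.4). C1M had 0 of 10425867 reads. Set against a floor of 3 reads over that group, the pooled level was 3.06-fold higher in C1MV and 5.20-fold higher in C1MDT. These 2 values leave out the counting error of the 8 and 16 reads at day 4, so they are not lower limits. No p is given for these rises, since the day-4 libraries alone admitted Myc to the test. At day 4 the pooled level in C1MV, C1MDT, C1HV and C1HDT was 0.241 (counting interval 0.095 to 0.539), 0.409 (0.208 to 0.779), 0.333 (0.139 to 0.723) and 0.324 (0.151 to 0.655) times that in C1T. Of these only C1MV passed the test (adjusted p = 0.0221), and it did not without C1T replicate 1 or 2 or C1MV replicate 2 or 3 (adjusted p 0.0587 to 0.148), nor by DESeq2 (0.0553). The others had adjusted p = 0.112, 0.0978 and 0.0505, and each passed when C1T replicate 4, the library with no read, was left out (0.0414, 0.0371 and 0.0160). That of C1HDT also passed without C1T replicate 3 (0.0441) or C1HDT replicate 1 (0.0469), with RLE size factors (0.0474) and with only the groups compared (0.0246). No more Myc reads were detected at this depth in C1M or C1H than in C1.

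As shares of the reads on the 3 paralogs, Mycn made up 77.0% ± 4.29 in C1, 87.8% ± 3.48 in C1M, 86.0% ± 3.29 in C1H and 88.9% ± 4.14 in C1T. With inducers withdrawn it made up 84.7% ± 5.21 in C1MV and 82.8% ± 3.23 in C1HV, and with them kept 78.2% ± 4.39 in C1MDT and 80.5% ± 4.30 in C1HDT. Mycn was thus the main paralog in all 32 libraries, and its lowest share in any of them was 72.6%. The share of Mycl was 5.62% ± 1.79 in C1T and 13.9% ± 5.80, 19.2% ± 5.85, 15.2% ± 2.31 and 17.3% ± 4.61 in C1MV, C1MDT, C1HV and C1HDT. The share of Myc was 5.46% ± 4.27 in C1T and between 0% and 3.90% in every other library. Summed over the paralogs the level was 14.7 ± 1.87 CPM in C1 and 54.9 ± 11.0 in C1T, while the summed level of the 4 MXD genes was 40.4 ± 3.25 and 52.3 ± 6.69.

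**Figure D3:**
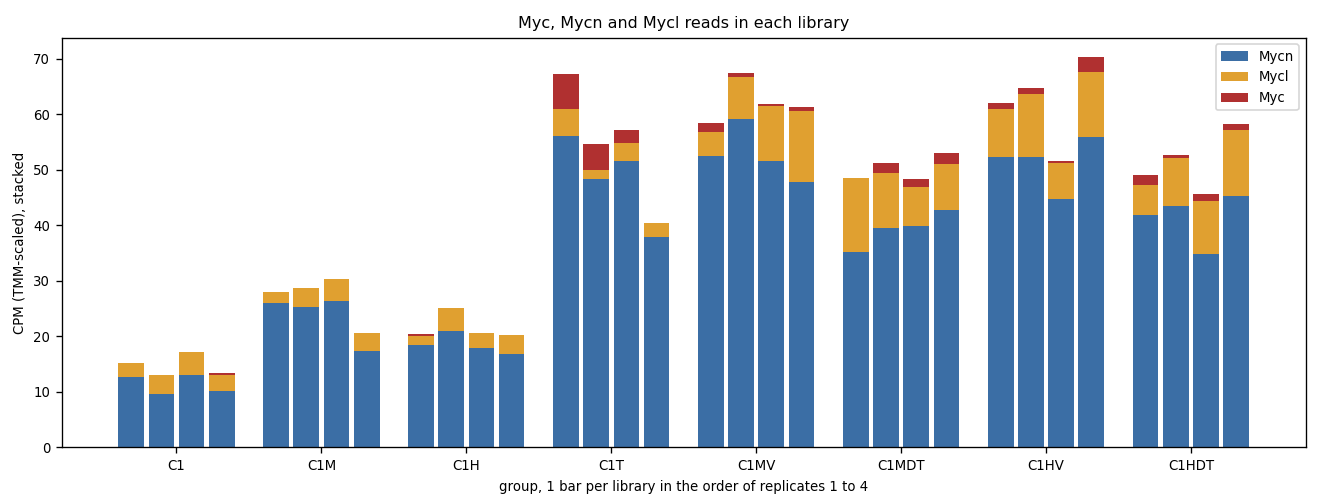
Stacked TMM-scaled CPM of Mycn, Mycl and Myc (vertical axis, from 0) with 1 bar per library in replicate order within each group (horizontal axis). Mycn is the largest part of every bar, Mycl grows in the 4 groups from sorted cells at day 4, and the largest Myc parts are those of C1T replicates 1 and 2.

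Max encodes the partner that all other members share, though some of them can also pair with MLX. It moved little, between 43.9 and 74.9 CPM over all libraries. C1T stood highest, at 74.9, 72.0, 69.1 and 72.5 CPM against 50.4, 54.9, 56.6 and 54.7 in C1, without overlap (log2 fold change 0.42 ± 0.12, adjusted p = 0.00140). At day 4 the log2 fold change against C1T was -0.39 ± 0.11 in C1MV, -0.54 ± 0.11 in C1MDT and -0.44 ± 0.11 in C1HDT, again without overlap (adjusted p = 0.00385, 3.76e-05 and 0.000937). C1HV, with 1 library at 70.3 CPM, overlapped C1T (-0.22 ± 0.12, adjusted p = 0.162). The changes from C1M to C1MV and to C1MDT differed from that of C1T by -0.57 ± 0.16 and -0.71 ± 0.16 (adjusted p = 0.00489 and 0.000227). Those from C1H to C1HV and C1HDT missed the threshold (-0.17 and -0.39, adjusted p = 0.522 and 0.0645), and the latter passed by DESeq2 (0.0402), with RLE size factors (0.0452), with library size only (0.0324) and with at least 1 CPM in all libraries (0.0265). Max also fell by 0.30 ± 0.11 from C1M to C1MDT with overlapping libraries (adjusted p = 0.0191), a call lost without C1M replicate 1 or 2 or C1MDT replicate 2 or 4 (adjusted p 0.0666 to 0.127).

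The MXD genes encode repressors that compete with MYC for MAX and recruit SIN3. Mxd4 was highest in C1T. Its libraries in C1T stood at 23.0, 19.2, 23.8 and 33.3 CPM and in C1 at 9.23, 12.5, 7.27 and 6.71, a log2 fold change of 1.46 ± 0.23 (adjusted p = 2.44e-08). C1T was above every library of every other group, the next highest being 19.0 CPM in C1HDT. Against C1T the log2 fold change of Mxd4 was -0.81 ± 0.21 for C1MV, -0.57 ± 0.20 for C1MDT, -0.77 ± 0.22 for C1HV and -0.60 ± 0.20 for C1HDT (adjusted p = 0.00101, 0.0182, 0.00312 and 0.0123). C1T replicate 4 is the highest library, and without it the calls in C1MDT and C1HDT were lost (-0.40 and -0.44, adjusted p = 0.158 and 0.114), as they were without C1MDT replicate 3 (0.0844) and C1HDT replicate 3 (0.0663). From their own starts Mxd4 rose by 1.44 ± 0.26 to C1MV, 1.68 ± 0.25 to C1MDT, 0.57 ± 0.24 to C1HV and 0.73 ± 0.22 to C1HDT (adjusted p = 1.10e-06, 2.27e-09, 0.0413 and 0.00297). The rise to C1HV was lost without any 1 of C1H replicates 2 and 4 and C1HV replicates 2 and 3 (adjusted p 0.0610 to 0.171), by DESeq2 (0.0585), with library size only (0.0521) and with no filter (0.0618). At day 0 the C1M libraries lay between 4.24 and 6.19 CPM, below all of C1 (-0.79 ± 0.29, adjusted p = 0.0307), and that call was lost without C1 replicate 1 or 2 or C1M replicate 2 or 3 (0.0616 to 0.147). C1H, with 5.93 to 13.9 CPM, overlapped both. Its difference from C1M was 0.91 ± 0.27 and missed the threshold (adjusted p = 0.0515), and it passed without C1H replicate 2 (0.0240), with RLE size factors, library size only, at least 1 CPM in all libraries or only the groups compared (0.0371 to 0.0495). At the 3′ end Mxd4 overlaps an antisense gene, Gm42846, by 1001 bases, and Gm42846 had 0 reads in all libraries. It is not given whether counting used strand, so this 0 does not show that Mxd4 lost no reads there.

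Mxi1, which encodes the MXD protein MXI1, was highest in the sorted fractions at day 0 and lowest in C1T. It stood at 20.6, 18.7, 15.1 and 26.4 CPM in C1, at 30.6, 28.7, 27.4 and 30.1 in C1M and at 29, 32.1, 28.9 and 36.2 in C1H, with no overlap between C1 and either fraction. The log2 fold change was 0.52 ± 0.17 in C1M (adjusted p = 0.0144, and 0.102 without C1 replicate 3) and 0.63 ± 0.17 in C1H (adjusted p = 0.00216). In C1T it was at 17.8, 13.3, 15.3 and 15.7 CPM. C1MV, whose lowest library was level with the highest of C1T to 3 digits, C1MDT and C1HDT were above it, by 0.55 ± 0.19, 0.48 ± 0.19 and 0.50 ± 0.19 (adjusted p = 0.0181, 0.0362 and 0.0303). Each of these 3 calls was lost without C1T replicate 2, that of C1MV also without C1MV replicate 3, that of C1MDT without C1T replicate 3 or C1MDT replicate 1 or 2, and that of C1HDT without C1T replicate 3 or C1HDT replicate 4 (adjusted p 0.0582 to 0.168). From the sorted fractions to day 4 it fell by 0.43 ± 0.16 to C1MDT, 0.59 ± 0.17 to C1HV and 0.53 ± 0.16 to C1HDT (adjusted p = 0.0182, 0.00228 and 0.00294), and the first was lost without C1M replicate 1 or C1MDT replicate 3 or 4 (0.0667 to 0.0995).

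Mxd1, induced in many cells as they leave the cycle, was low throughout, with 3 to 21 reads in a library. Its mean fell from 8.08 ± 1.49 CPM in C1 to 5.22 ± 1.91 in C1T, which missed the threshold (-0.60 ± 0.34, adjusted p = 0.140). The lowest group was C1HDT, at 1.70, 1.91, 2.51 and 1.36 CPM, below every library of C1T (7.20, 6.25, 2.86 and 4.57 CPM) and of C1H. The log2 fold change was -1.49 ± 0.42 against C1T (adjusted p = 0.00285) and -1.78 ± 0.39 against C1H (adjusted p = 4.16e-05). From C1M it fell by 1.11 ± 0.36 to C1MV and 0.98 ± 0.34 to C1MDT (adjusted p = 0.00759 and 0.0120), and these were lost without C1MV replicate 2 (0.0640) and without C1M replicate 1 or C1MDT replicate 3 or 4 (0.0542 to 0.0701).

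Mxd3, a member linked to the S phase of the cell cycle, had 4 to 38 reads in a library. It rose by 1.07 ± 0.39 in C1T vs C1 and by 0.88 to 0.99 in the other 4 populations (adjusted p between 0.0118 and 0.0189), with means of 3.21 to 3.90 CPM at day 0 and 6.73 to 7.94 at day 4. Its libraries overlapped in all of these comparisons except C1MV vs C1M. Each call was lost without 1 library in turn: C1 replicate 4 or C1T replicate 1, C1M replicate 3 or 4 (C1MV), C1M replicate 4 or C1MDT replicate 3, C1HV replicate 4, and C1H replicate 2 or C1HDT replicate 2 (adjusted p 0.0541 to 0.154). Against C1T the values lay between 0.07 and 0.21 and missed the threshold (adjusted p 0.703 to 0.905). Mxd3 overlaps Prelid1 by 105 bases on the opposite strand, and Prelid1 had 143 to 552 reads per library. Whether counting used strand is not given in the sources used here, so reads of the 2 genes in this stretch may not be told apart.

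Mnt encodes a MAX partner present in most proliferating cells. It stood at 108, 105, 87.7 and 86.3 CPM in C1, above all libraries of C1M (68.1 to 83.4), C1H (63.5 to 67.7) and C1T (56.8 to 72.0). The log2 fold change was -0.38 ± 0.11 in C1M, -0.56 ± 0.11 in C1H and -0.58 ± 0.11 in C1T vs C1 (adjusted p = 0.00313, 8.49e-06 and 2.51e-06). At day 4 it was lower with the inducers. With dox and TMP throughout it was 52.2 ± 5.74 CPM in C1MDT and 54.7 ± 8.23 in C1HDT, and without them 69.8 ± 3.46 in C1MV and 74.9 ± 7.57 in C1HV. Neither fraction's libraries overlapped between the 2 regimens, and the log2 fold change was -0.41 ± 0.11 for the middle and -0.46 ± 0.11 for the high fraction (adjusted p = 0.00582 and 0.00144). From C1M to C1MDT Mnt fell by 0.49 ± 0.11 (adjusted p = 5.07e-05). The fall from C1H to C1HDT (0.27 ± 0.11, adjusted p = 0.0314) and the lower level of C1MDT than C1T (-0.29 ± 0.12, adjusted p = 0.0393) were lost without 1 library, the first without any of C1H replicates 1 to 4 or C1HDT replicate 1 or 3, and the second without C1T replicate 1, 2 or 3 or C1MDT replicate 1, 2 or 4 (adjusted p 0.0501 to 0.261).

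Mga encodes the largest protein of the network, with a T-box as well as the MAX-binding region, and like Mnt it was highest in C1 and lowest with continued induction. C1 libraries stood at 510, 517, 482 and 471 CPM, those of C1M at 363, 298, 373 and 341 and those of C1H at 401, 397, 370 and 402. Every C1 library was above all others in the series. The log2 fold change was -0.53 ± 0.07 in C1M and -0.33 ± 0.07 in C1H (adjusted p = 1.87e-09 and 0.000132), and -0.53 ± 0.07 in C1T vs C1 (4.73e-10). With continued induction Mga was at 222, 227, 235 and 262 CPM in C1MDT and at 248, 219, 210 and 225 in C1HDT, below all other libraries of the series. Against the same fraction without inducers this was -0.32 ± 0.08 for C1MDT vs C1MV and -0.53 ± 0.08 for C1HDT vs C1HV (adjusted p = 0.00103 and 2.13e-08), and the difference between these missed the threshold (-0.21 ± 0.11, adjusted p = 0.630). Against C1T it was -0.54 ± 0.08 in C1MDT and -0.60 ± 0.08 in C1HDT (adjusted p = 1.65e-09 and 1.96e-11). The smaller value of C1MV vs C1T (-0.21 ± 0.08, adjusted p = 0.0224) was lost without C1T replicate 1, 2 or 3 or C1MV replicate 2 or 3 (0.0574 to 0.137), that of C1MV vs C1M (-0.22 ± 0.08, adjusted p = 0.0128) without C1M replicate 1 or 3 or C1MV replicate 2 or 3 (0.0575 to 0.179), and that of C1HV vs C1H (-0.27 ± 0.08, adjusted p = 0.00150) without C1HV replicate 1 (0.0606).

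Over the 32 libraries Pearson's r of log2 CPM was 0.78 for Mga and Mnt, 0.78 for Mycn and Mxd3, 0.71 for Mxd1 and Mga, -0.69 for Mycn and Mxd1 and -0.67 for Mycn and Mga. Libraries of the same group, sorting and day share these points, and the values are descriptions. The genes most like a member, among the 9307 tested genes whose mean log2 CPM reached 3, were ranked in the same way. For Mycn they were Zmat4 (r = 0.96), Sox4 (0.95), Rps21 (0.95), Dtna (0.95) and Dusp4 (0.95). Sox4, a SOX transcription factor of progenitor cells, went from a mean of 12.7 CPM in C1 to 29.4 in C1M, 31.7 in C1H and 113.3 in C1T. For Mxd4 they were Ddx21 (0.88), Pdap1 (0.87), Mtdh (0.87), Enc1 (0.86) and Cgnl1 (0.86). Ddx21, a nucleolar RNA helicase, stood at 547.5 CPM in C1, 1080.5 in C1T and 759 to 832 in the other day-4 groups. For Mxd1 they were Pcf11 (0.85), Tns3 (0.84), Dnajc21 (0.83), Dock6 (0.82) and Klhl20 (0.82), and for the sparse reads of Myc they were Wdr75 (0.80), Zmynd19 (0.78), Car2 (0.77), Kmt5a (0.77) and Lyar (0.77).

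Genes around the network were counted by list, in the same fit. In C1T vs C1, where the lists are first given, 49.3% of all genes were called and 24.4% were higher. Of the 3 genes of the parallel MLX arm, 1 was called there. This was Mlxipl, the glucose-responsive factor ChREBP, at 17.0 ± 5.21 CPM in C1 and 6.30 ± 2.38 in C1T (-1.45 ± 0.28, adjusted p = 3.67e-06), and it was lower still in C1HDT (-1.25 ± 0.38 against C1T, adjusted p = 0.00536). Of 10 MYC coactivators and partners, 5 rose and 3 fell in C1T vs C1, with a median of 0.00 where that of all genes was 0.01. Actl6a, a subunit of the TIP60 and BAF complexes, rose (0.70 ± 0.08, adjusted p = 2.36e-13) and Kat5, the TIP60 acetyltransferase, did so by 0.38 ± 0.16 (0.0410). Wdr5, which anchors MYC to chromatin, fell (-0.74 ± 0.09, adjusted p = 1.54e-13), as did Trrap (-0.49 ± 0.12, 0.000152). In C1H vs C1, where 25.9% of all genes were called, 0 rose and 3 fell, among them Kat2a (-0.72 ± 0.15) and Ruvbl1 (-0.41 ± 0.13). At day 4 Bptf, a chromatin remodeller, was below C1T in both C1HV and C1HDT (-0.49 ± 0.07 and -0.47 ± 0.07), and Actl6a in C1HV (-0.54 ± 0.08).

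Among 8 genes of MYC protein turnover, 5 rose and 2 fell in C1T vs C1 (median 0.50), where 49.3% of all genes were called and 24.4% rose. Aurka, the kinase that shields N-MYC from degradation, rose by 0.86 ± 0.11 (adjusted p = 1.14e-11) and Usp28, a deubiquitinase, by 0.69 ± 0.18 (0.000826). Gsk3b, whose kinase marks MYC for degradation, fell by 0.82 ± 0.08 (1.12e-18) and Huwe1, a ubiquitin ligase, by 0.35 ± 0.08 (4.14e-05). Fbxw7, the ligase subunit that reads that mark, was below C1T in C1HV (-0.70 ± 0.10, adjusted p = 6.87e-09) and in C1HDT (-1.0 ± 0.10, 4.50e-16), where 4 and 3 of the 8 genes and 14.3% and 16.1% of all genes were lower. Aurka and Usp28 also rose, and Gsk3b and Huwe1 fell, from start to day 4 in the other 4 populations, where 45.9% to 55.7% of all genes were called. Of 14 SIN3 corepressor genes, 2 rose and 5 fell in C1T vs C1 (median 0.03), a share near that of all genes called, with Ing1 at 0.72 ± 0.07 and Sap30 at -0.89 ± 0.16. In C1H vs C1 2 rose and 3 fell (25.9% of all genes called). In C1HDT vs C1T 3 rose and 5 fell (33.5% of all genes called), with Rbbp7 at 0.68 ± 0.09, Sin3b at 0.54 ± 0.08, Arid4a at -0.76 ± 0.10 and Sin3a at -0.50 ± 0.10. Of the 9 PRC1.6 partners of MGA, 5 rose and 1 fell in C1T vs C1 (median 0.54), against the same 24.4% of all genes that rose. Yaf2 rose by 1.47 ± 0.21 and its relative Rybp fell by 1.02 ± 0.17 (adjusted p = 3.57e-10 and 5.26e-08). Already at day 0 Yaf2 was higher in C1H than in C1 (0.99 ± 0.21) and L3mbtl2, a subunit of the complex, was lower (-0.63 ± 0.09). Against C1T, 1 of the 9 was higher and 2 lower in C1HV (28% of all genes called), and 0 higher and 4 lower in C1HDT (33.5%). Pcgf6, another subunit, was higher in C1HV (0.32 ± 0.13, adjusted p = 0.0399). E2f6, its E2F subunit, was below C1T in C1HV (-0.60 ± 0.19) and C1HDT (-0.79 ± 0.19), and Rybp in C1HDT (-1.31 ± 0.21).

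Of 27 genes that textbooks give as induced by MYC, mostly for ribosome production, nucleotide and polyamine synthesis and the cell cycle, 25 rose and 0 fell in C1T vs C1. There, 24.4% of all genes tested rose, and the median of the list was 0.58 where that of all genes was 0.01. Ccnd2, cyclin D2, went from 3.75 ± 1.56 to 168 ± 14.2 CPM (log2 fold change 5.45 ± 0.19, adjusted p = 1.33e-52) and Odc1, ornithine decarboxylase, from 15.9 ± 1.36 to 89.7 ± 5.22 (2.49 ± 0.14, 1.37e-35). The rise was not particular to C1T. From their own starts 19 rose and 1 fell to C1MV, 19 and 3 to C1MDT, 16 and 0 to C1HV and 19 and 2 to C1HDT. Medians were 0.36, 0.50, 0.32 and 0.43, where 45.9%, 52.4%, 47% and 55.7% of all genes were called. At day 0, 2 were higher and 8 lower in C1H vs C1 (median -0.08), where 25.9% of all genes were called. Fbl, fibrillarin, was higher (0.67 ± 0.12), and Ldha, lactate dehydrogenase, and Mybbp1a were lower (-0.91 ± 0.07 and -0.57 ± 0.07). Against C1T, the number lower was 17 for C1MV, 14 for C1MDT, 19 for C1HV and 14 for C1HDT, where 14.9%, 16.5%, 14.3% and 16.1% of all genes were lower. The number higher was 1, 4, 1 and 5. Medians of the list in these 4 comparisons were -0.44, -0.27, -0.41 and -0.27. Ccnd2 was lower in C1HV (-1.5 ± 0.12) and C1HDT (-1.0 ± 0.11), Srm, spermidine synthase, in C1HV (-0.93 ± 0.08), and Nop56, a small nucleolar ribonucleoprotein, in C1HDT (-0.82 ± 0.07). Genes that stood higher in C1HDT included Shmt2 (0.53 ± 0.09) and Cdk4 (0.39 ± 0.08). With inducers kept, 9 of the list were higher and 4 lower in C1MDT vs C1MV (12.6% of all genes called). In C1HDT vs C1HV 13 were higher and 3 lower (16%). The endoderm markers given above move with these comparisons, and their part was not tested.

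**Figure D4:**
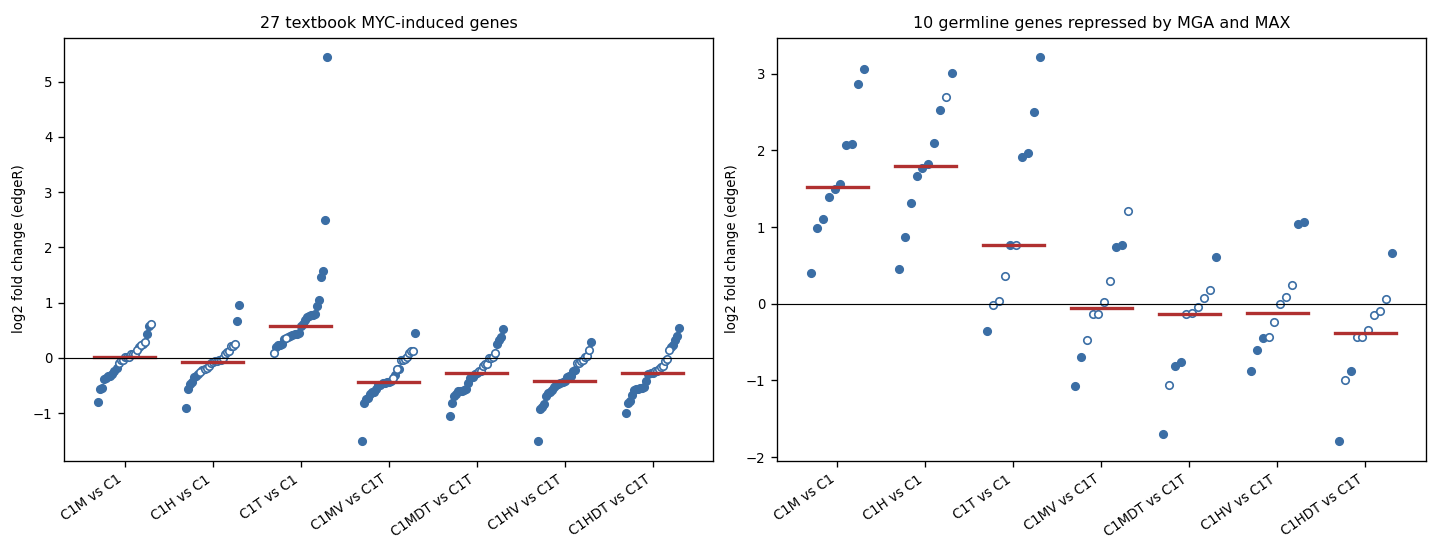
Log2 fold changes (vertical axes) of 27 textbook MYC-induced genes (left) and of 10 germline genes repressed by MGA and MAX (right) in 7 comparisons (horizontal axes). Each point is a gene, filled where the adjusted p was under 0.05, and the red line is the median of the list, which is 0.58 for the induced genes in C1T vs C1 and 1.53 for the germline genes in C1M vs C1.

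Of 6 textbook MYC-repressed genes, 3 rose and 2 fell in C1T vs C1 (median 0.61), where 49.3% of all genes were called. Cdkn1c, a cyclin-dependent kinase inhibitor, rose by 3.74 ± 0.26 (adjusted p = 1.06e-28) and Gadd45a, a DNA damage response gene, by 1.10 ± 0.20, while Ndrg1 fell by 1.18 ± 0.22. In C1H vs C1 Cdkn1c and Cdkn1a rose (1.54 ± 0.32 and 0.72 ± 0.08) and Cdkn1b fell (-0.70 ± 0.10). Ndrg1 was above C1T in C1HV and C1HDT (1.65 ± 0.21 and 1.74 ± 0.20) and Cdkn1c below (-1.12 ± 0.19 and -1.45 ± 0.18).

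The 10 germline genes listed as repressed by MGA, MAX and PRC1.6 in ESCs were all tested. In C1 the list summed to 168 to 189 CPM, with Stag3 at 68.8 ± 2.56, so it was not silent there. There were 10 higher in C1M vs C1, where 14.3% of all genes were higher, and 9 in C1H vs C1, where 13.8% were. Tex101 missed the threshold in the latter. A link between this list and the level of Mga was not tested. The medians were 1.53 and 1.80. Slc25a31, a mitochondrial carrier of the testis, was at 2.45 ± 0.611 CPM in C1 and 20.0 ± 1.28 in C1H (3.00 ± 0.31, adjusted p = 1.22e-15), and Taf7l, a germ cell TAF, at 13.5 ± 3.58 and 77.3 ± 6.97 (2.52 ± 0.19, 4.30e-17). In C1M Dazl, an RNA-binding protein of germ cells, was higher by 2.07 ± 0.15 (9.43e-25). In C1T vs C1, 5 rose and 1 fell (median 0.77), where 49.3% of all genes were called and 24.4% rose. Mael was at 3.22 ± 0.29, Taf7l at 2.5 ± 0.19 and Stag3 at -0.35 ± 0.12. From the sorted fractions to day 4, 1 rose and 4 fell to C1MV, 1 and 5 to C1HV, and 1 and 7 to each of C1MDT and C1HDT (medians -0.49, -0.56, -0.75 and -1.12), where 45.9%, 47%, 52.4% and 55.7% of all genes were called. Against C1T, Taf7l and Dazl were lower in C1HDT (-1.79 ± 0.17 and -0.88 ± 0.21) and Smc1b was higher (0.66 ± 0.14).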

How the data were processed

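RNA of 32 libraries in 8 groups of 4 was sequenced with QuantSeq. The authors trimmed the reads, aligned them to mm10 with STAR, counted uniquely aligned reads per Ensembl gene with htseq-count and deposited these whole-number counts without normalization. Between 49.4% and 56.4% of the lines per library were not unique and between 4.72% and 11.2% fell on no gene, and these stayed out. Group and replicate number came from the labels. Genes were placed with GENCODE on GRCm38.

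Genes reaching 1 CPM in 4 or more of the libraries were analysed with edgeR 4.0.16 (R 4.3.3, quasi-likelihood test, TMM, 1 fit of 32 libraries, Benjamini-Hochberg adjustment over 15280 genes, threshold 0.05). SE is the log2 fold change divided by the square root of F, and intervals are 95%. The fold change is shrunk by a small prior count, and F is not computed from it. This SE is therefore approximate near a change of 0 and where reads are few. Log2 CPM used a prior count of 2. Counting intervals are exact (scipy 1.17.1), and the floor was 3 reads over the 4 libraries of a group. The steps were tested on simulated data with 200 changed genes.

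The members, gene lists and comparisons were chosen with earlier results of these data known. Named are all members, for each list the 2 largest rises and 2 largest decreases among called genes without overlap of libraries in C1T vs C1, C1H vs C1, C1HV vs C1T and C1HDT vs C1T, and the 5 genes most correlated with each of 4 members. Of these, the genes the text turns on are given, and Dazl in C1M was chosen after its value was seen. Replicates came from cultures whose separation the labels do not describe, so p-values measure the spread between these samples. Alternatives were RLE size factors, library size only, DESeq2 1.42.0, no filter, at least 1 CPM in all libraries, a replicate block, only the groups compared, each library left out, a prior count of 0.5 and 1 count added to each paralog.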

Additional observations from a re-analysis of the deposited data

Results flagged for a closer look

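In groups of 4 libraries, 1 library stood apart from the other 3 by Dixon's test in 5 of 79 sets of a gene in a group. Chance gives such a case in about 1 in 20 sets, or 3.95 here. Mycn was lowest at 17.3 CPM in C1M, Mga lowest at 370 CPM in C1H and Mxd3 highest at 10.6 CPM in C1MDT. Myc was highest at 0.479 CPM in C1 and at 0.341 CPM in C1H, where each of these values is 1 read beside 3 libraries with none. A lone read is always set apart by this test, so the rate of 1 in 20 does not hold for such sets.

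The change from start to day 4 differed from that of C1T in 14 cases by edgeR's test of the difference, all given as log2 differences. From C1M to C1MV they were -0.94 for Mycn, -0.57 for Max, 0.31 for Mga and 0.50 for Mnt, and from C1M to C1MDT -1.37 for Mycn, 1.54 for Mycl and -0.71 for Max. From C1H to C1HV they were -0.64 for Mycn, 1.71 for Mycl, -0.89 for Mxd4 and 0.77 for Mnt, and from C1H to C1HDT -0.94 for Mycn, 1.63 for Mycl and -0.27 for Mga. That of Mxd4 was lost without any 1 of 13 libraries (adjusted p 0.0508 to 0.223), by DESeq2 (0.0542), with no filter (0.0587) and with only the groups compared (0.0501). That of Mga to C1HDT was lost without any 1 of 14 (0.0581 to 0.156) and that of Mga to C1MV without C1M replicate 2 (0.0619).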

How the results depend on the processing

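Of 210 log2 fold changes of members, 88 passed the threshold, and 56 of these passed under every alternative that could be run on them. With at least 1 CPM in all libraries 82 of the 88 were tested, Myc not among them, and with only the groups compared 83. No called value changed sign. The number of members called in C1H vs C1M was 0, and it was 1 with RLE size factors, 1 with library size only, 1 with at least 1 CPM in all libraries, 2 with only the groups compared (Mxd4 in each, and Mga in the last) and 0 to 1 with a library left out (1 without C1H replicate 2). In C1HV vs C1T library size only gave 4 in place of 2. Leaving out a library gave 3 to 6 in C1MV vs C1T (3 without C1T replicate 2 or C1MV replicate 3), 2 to 4 for the difference of C1HV and C1T changes (2 without C1H replicate 3, C1T replicate 3 or C1HV replicate 2) and 1 to 4 for that of C1HDT and C1T (1 without C1 replicate 3, C1H replicate 1, C1T replicate 2 or C1HDT replicate 4). The first of these 2 differences gave 2 in place of 4 with no filter on low counts, and the second gave 5 in place of 3 with at least 1 CPM in all libraries. The lower levels of Mga in C1MV and of Mnt in C1MDT than in C1T missed the threshold with library size only (adjusted p = 0.106 and 0.0789), and that of Mnt and the higher Mxi1 in C1MDT also with no filter (0.0623 and 0.0534). The causes were not tested. Library size only moved no mean log2 CPM by more than its SD apart from Myc in C1M, Max in C1T and Mnt in C1H, and a prior count of 0.5 moved those of Myc, Mycl and Mxd1 where reads were few.

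Libraries with the same replicate number did not deviate together (mean r -0.0016, other numbers 0.00054), so the replicate numbers were not taken as pairs. With a replicate block 1 call was lost, that of Mga for the difference of C1HDT and C1T changes (adjusted p = 0.0524), and the count there was 2 in place of 3. Depth limits what can be said of Myc, with 0 to 13 reads in a library.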
